A study of Mus musculus with 26 samples.

Results

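The genes described here are 10 immediate early genes, Fos, Fosb, Jun, Junb, Jund, Egr1, Ier2, Nr4a1, Dusp1 and Zfp36, out of 19938 genes measured. They were chosen by name, and each was represented by 1 probe set. The 26 arrays measured RNA of blood-forming cells that were sorted out of bone marrow. The mice were 8 to 15 weeks old and carried a Gata1-EGFP transgene (Tg/+). Every group carried the transgene, and no group without it enters a comparison. A reporter-positive stem cell group is not analysed here.

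The haematopoietic stem cells (HSC GFP-, 3 arrays) were lineage-negative cKit+ Sca1+ CD150+ Flt3- cells without reporter signal, and the lymphoid-primed multipotent progenitors (LMPP, 4 arrays) were CD150-, Flt3 high and without reporter signal in the same cKit+ Sca1+ fraction. Common lymphoid progenitors (CLP, 3 arrays) were lineage-negative and B220-, low in Sca1 and cKit, Flt3+ and IL-7Ra+. The other groups were cKit+, Sca1- and CD41-. Pre-granulocyte-macrophage progenitors (PreGM) lacked the Fc gamma receptors II/III, CD150 and CD105 and were split into GFP- (3 arrays) and GFP+ cells (3 arrays). Granulocyte-macrophage progenitors (GMP) carried the Fc gamma receptors and were split into GFP- (4 arrays) and GFP+ cells (3 arrays). Pre-megakaryocyte-erythroid progenitors (PreMegE, 3 arrays) were CD150+ without the Fc receptors or CD105, and their label gives no reporter gate.

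Immediate early genes are transcribed within minutes of a signal, without new protein synthesis, and their short-lived RNAs decay soon after. Growth factors and cytokines reach them through the MAP kinases, serum response factor with its ternary complex partners, and CREB/ATF proteins. Fos and Jun proteins pair through leucine zippers to form the AP-1 transcription factor, EGR proteins bind GC-rich sites through zinc fingers, and Dusp1 and Zfp36 encode inhibitors that end the response. Cell dissociation and sorting are known to induce the same genes, so arrays of 1 sorted population were compared with each other before populations were compared. The labels give no sorting day, time on ice or RNA yield, so the part of handling in any difference below was not tested. The labels do not say either that replicates came from separate animals. The p-values measure only the spread between these arrays. The mean signal of 3 Y-linked genes ran from 5.77 to 7.73 among the LMPP arrays, so not all arrays of that group held RNA of the same make-up. In sorted populations, fewer cells that transcribe a gene and less RNA of it per cell cannot be told apart.

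Reporter status was mirrored by Gata1, but not every sort marker followed its gate in RNA. Gata1, the erythroid and megakaryocyte factor behind the reporter, had means of 8.48 ± 0.41 (SD, n = 3) for PreGM GFP+, 8.08 ± 0.15 (SD, n = 3) for GMP GFP+ and 8.47 ± 0.32 (SD, n = 3) for PreMegE. The means of the remaining groups lay between 6.31 and 6.74. Itga2b, which encodes CD41, had its highest means in groups sorted as CD41-: 8.63 in PreGM GFP+, 8.57 in GMP GFP+ and 8.37 in PreMegE. The other CD41- groups, PreGM GFP- and GMP GFP-, had 7.5 and 7.13. All 9 measured gate genes differed between groups by the moderated F test of limma, and Ly6a, which encodes Sca1, was not among them. Values are log2 signals. The median of all values was 6.61, and signals below it were not shown to exceed background. No signal is compared between genes, because probe sets differ in response. The number of arrays limits the precision of every mean.

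Over the 8 groups, Zfp36 and Egr1 differed by more than the spread among arrays of a group. Jun and Dusp1 varied most among arrays of the same group. The other members had no called difference. By the moderated F test of limma with Benjamini-Hochberg adjustment over all genes, 2 of the 10 were called, Zfp36 (F = 9.73, adjusted p = 0.000378) and Egr1 (F = 7.69, adjusted p = 0.00162). The share of all genes called was 15.2%, close to the 2 of 10 here. Over the alternatives planned, the adjusted p ran from 7.46e-05 to 0.00125 for Zfp36 and from 0.00036 to 0.00616 for Egr1. The plot of every array by group shows both patterns.

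**Figure D1:**
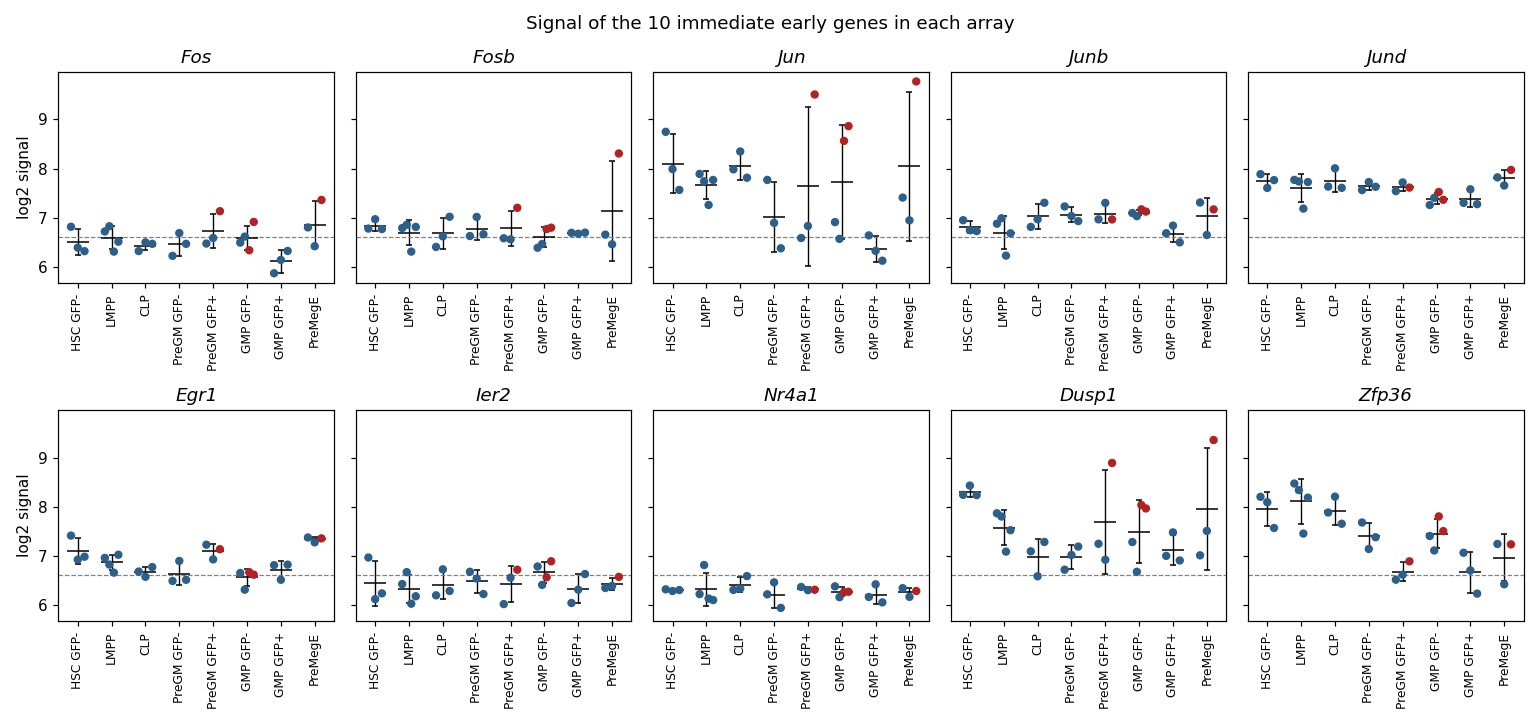
Log2 signal (y axis) of each immediate early gene in each array, by sorted group (x axis). Points are arrays, bars are the group mean and SD, the dashed line is the median of all values (6.61), and red points are PreGM GFP+ array 3, PreMegE array 3 and GMP GFP- arrays 3 and 4; Zfp36 steps down from the groups at the left, while Jun and Dusp1 are spread by the red points.

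Zfp36 encodes tristetraprolin, an RNA-binding protein that speeds decay of AU-rich messages, those of Fos and of several cytokines among them. Its signals were 8.47, 8.34, 7.46 and 8.19 in the LMPP arrays, 8.20, 8.09 and 7.57 in HSC GFP- and 7.88, 8.21 and 7.66 in CLP. PreGM GFP- had 7.68, 7.14 and 7.38, and GMP GFP- had 7.41, 7.11, 7.81 and 7.51. The reporter-positive groups and PreMegE were lowest, with 6.52, 6.62 and 6.89 in PreGM GFP+, 7.07, 6.71 and 6.24 in GMP GFP+ and 7.25, 6.43 and 7.24 in PreMegE. All 10 arrays of LMPP, HSC GFP- and CLP, from 7.46 to 8.47, lay above all 9 arrays of PreGM GFP+, GMP GFP+ and PreMegE, from 6.24 to 7.25. These tiers were drawn after the values were seen, and 0.792% of all genes showed no overlap, in either direction, between the same arrays. The order of group means was LMPP, HSC GFP-, CLP, GMP GFP-, PreGM GFP-, PreMegE, PreGM GFP+ and GMP GFP+, and neighbours in it overlapped throughout. The wider steps were 0.46 from CLP to GMP GFP-, where the larger SD was 0.29, and 0.43 from PreGM GFP- to PreMegE, where it was 0.47.

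Of 10 comparisons between groups, each tested over all genes with limma and Benjamini-Hochberg adjustment, 1 called a member. Zfp36 was lower in PreMegE than in HSC GFP- by 0.99 on the log2 scale (difference -0.99, SE 0.27, adjusted p = 0.0464), with group means of 6.97 ± 0.47 (SD, n = 3) and 7.96 ± 0.34 (SD, n = 3) and no overlap. In that comparison 3.18% of all genes were called and 2.19% were called lower, against 1 of 10 here, and 16.9% did not overlap. The same member alone had an unadjusted p under 0.05, as had 12.8% of all genes. Zfp36 exceeded the median signal in 2 of 3 PreMegE arrays, so the size of its difference is not exact. Mature neutrophil markers moved with this comparison, with 5 of 7 called higher in PreMegE and a mean signal of the list between 8.49 and 9.45 in PreMegE and between 5.69 and 6.01 in HSC GFP-, and their part in the difference was not tested. The call was close to the threshold, and its adjusted p ran from 0.0163 to 0.232 over the alternatives planned. It was lost with each array centred on its median (adjusted p = 0.0705), after quantile normalization (adjusted p = 0.0511) and with the spread taken from the 6 arrays compared (adjusted p = 0.216). It was also lost without any 1 of 14 arrays, with adjusted p up to 0.232 without PreMegE array 2: GMP GFP- 1 or 4, GMP GFP+ 2, PreGM GFP- 3, any PreGM GFP+ or PreMegE array, CLP 1, LMPP 4 and HSC GFP- 1 or 2.

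Zfp36 was also lower with the reporter in both gates, without a call. GMP GFP+ had 6.67 ± 0.42 (SD, n = 3) and GMP GFP- 7.46 ± 0.29 (SD, n = 4), a difference of -0.79 (SE 0.25, 95% interval -1.31 to -0.26, adjusted p = 0.0617). The 2 groups did not overlap, as was true of 23.7% of all genes. Over the alternatives planned the adjusted p ran from 0.0373 to 0.317. The difference passed the threshold without GMP GFP+ array 1 (adjusted p = 0.0432), PreMegE array 2 (adjusted p = 0.0448) or LMPP array 3 (adjusted p = 0.0377), the last 2 of which enter through the shared spread. PreGM GFP+ had 6.68 ± 0.19 (SD, n = 3) and PreGM GFP- 7.40 ± 0.27 (SD, n = 3), a difference of -0.73 (SE 0.27, 95% interval -1.29 to -0.16, adjusted p = 0.262), again without overlap, as for 12.3% of all genes. The difference between these reporter effects was -0.06 (SE 0.37, 95% interval -0.83 to 0.71, adjusted p = 0.987), an interval that leaves room for unequal effects. Both reporter-positive means lay near the median signal, with 2 of 3 arrays above it in each group. The sizes of these differences are therefore not exact.

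Egr1 encodes a zinc finger transcription factor induced by growth signals, which is known to restrain division and migration of stem cells. Its signals were 7.38, 7.28 and 7.36 in PreMegE, 7.42, 6.93 and 6.99 in HSC GFP- and 7.23, 6.93 and 7.14 in PreGM GFP+. LMPP had 6.96, 6.83, 6.66 and 7.03. The remaining groups were lower, with 6.81, 6.52 and 6.82 in GMP GFP+, 6.68, 6.58 and 6.78 in CLP, 6.49, 6.90 and 6.52 in PreGM GFP- and 6.66, 6.32, 6.67 and 6.62 in GMP GFP-. All 9 arrays of PreMegE, HSC GFP- and PreGM GFP+, from 6.93 to 7.42, lay above all 13 arrays of CLP, PreGM GFP-, GMP GFP- and GMP GFP+, from 6.32 to 6.90. Over the same arrays, grouped after the values were seen, 0.226% of all genes did not overlap in either direction. The margin between the tiers was small, and the lowest means, 6.57 in GMP GFP- to 6.72 in GMP GFP+, lay near the median signal, so differences from them are not exact. Neighbouring groups in the order overlapped throughout.

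In the PreGM gate Egr1 had a mean of 7.10 ± 0.15 (SD, n = 3) with the reporter and 6.64 ± 0.23 (SD, n = 3) without it, and the arrays did not overlap. The difference of 0.46 (SE 0.15, adjusted p = 0.131) was not called. Without PreGM GFP- array 2, the highest of its group, it was 0.60 and passed (adjusted p = 0.0392), and over the alternatives planned the adjusted p ran from that value to 0.438. In GMP the reporter difference was 0.15 (SE 0.14, 95% interval -0.13 to 0.43, adjusted p = 0.515). GMP GFP+ was lower than PreGM GFP+ by 0.38 (difference -0.38, SE 0.15, adjusted p = 0.434), without overlap and without a call. The Egr1 order differed from that of Zfp36: PreGM GFP+ and PreMegE were among the highest for Egr1 and among the lowest for Zfp36, while HSC GFP- was high for both.

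Jun encodes the partner with which Fos proteins form AP-1, and Dusp1 encodes the nuclear phosphatase that switches off MAP kinases. The PreGM GFP+ arrays had Jun signals of 6.59, 6.83 and 9.51. PreMegE had 7.41, 6.95 and 9.77, and GMP GFP- had 6.91, 6.57, 8.56 and 8.86. In each of these groups, then, some arrays were far above the others: array 3 in PreGM GFP+ and PreMegE, and arrays 3 and 4 in GMP GFP-. Dusp1 split the same arrays, with 7.25, 6.92 and 8.89 in PreGM GFP+, 7.01, 7.51 and 9.36 in PreMegE and 7.28, 6.68, 8.04 and 7.97 in GMP GFP-. The high arrays exceeded the mean of the others of their group by 2.80, 2.59 and 1.97 for Jun and by 1.80, 2.10 and 1.02 for Dusp1 in PreGM GFP+, PreMegE and GMP GFP-.

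Since Jun and Dusp1 singled out these 4 arrays, their separation is a description and carries no test. Among all 19938 genes, 2 were higher by at least 1 log2 unit in each of the 3 groups, and these were Jun and Dusp1 themselves. In the opposite direction there were 0. Counting any separation, 392 genes (1.97%) were higher in the 4 arrays than in the other arrays of all 3 groups, and among the 10 members these were Jun, Dusp1 and Fosb. Fosb, a Fos relative that also pairs with Jun, was 6.58, 6.56 and 7.20 in PreGM GFP+, 6.66, 6.46 and 8.31 in PreMegE and 6.39, 6.47, 6.77 and 6.80 in GMP GFP-. It exceeded the median signal in 1 of 3 PreGM GFP+, 2 of 3 PreMegE and 2 of 4 GMP GFP- arrays. Its other signals there were not shown to exceed background. Fos was 6.48, 6.59 and 7.13 in PreGM GFP+ and 6.80, 6.42 and 7.36 in PreMegE, but 6.50, 6.62, 6.34 and 6.92 in GMP GFP-, where arrays 3 and 4 did not lie apart. Zfp36 exceeded the other arrays of the group by 0.32 in PreGM GFP+, 0.40 in PreMegE and 0.40 in GMP GFP-, but lay apart in the first and last only. Egr1 and Nr4a1 did not lie apart in any of the 3 groups. In PreMegE the mean of Fosb, 7.14 ± 1.01 (SD, n = 3), rests on array 3, and without it the arrays of that group lay among those of the other groups.

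The plot of each array against its own group shows which genes moved in which arrays.

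**Figure D2:**
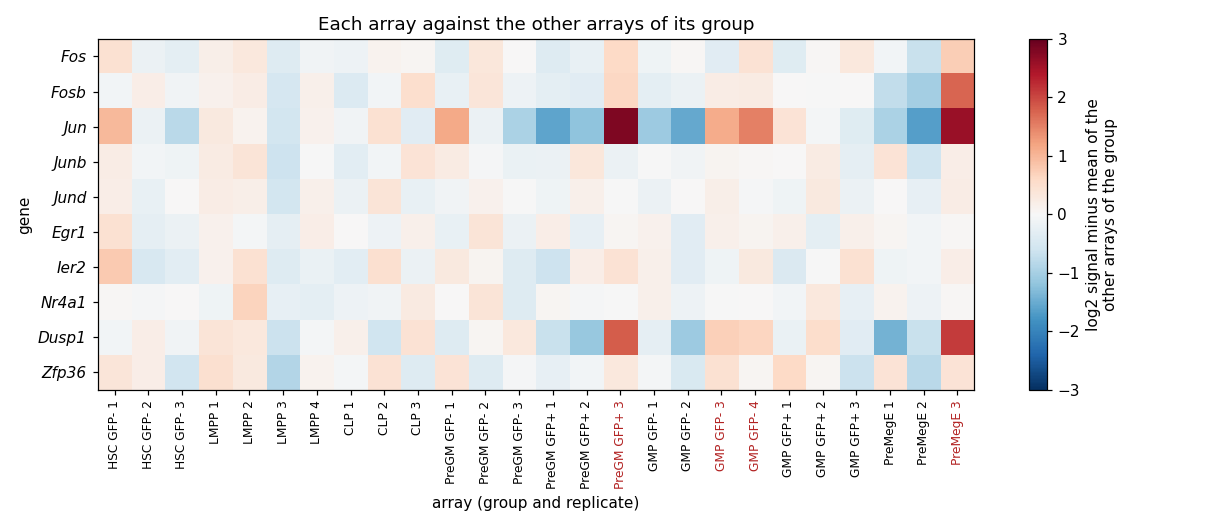
Colour gives the log2 signal of a gene (rows) in an array (columns, group and replicate) minus the mean of the other arrays of that group. Array names in red are the 4 arrays with high Jun and Dusp1; PreMegE array 3 is 2.59 above for Jun and 2.10 for Dusp1, and LMPP array 3 is lowest of its group for 9 of 10 genes.

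The 4 arrays did not stand apart in the total size of their deviations, which cannot show whether they deviated in the same direction. The SD of their deviations from the group mean over all genes lay between 0.187 and 0.242, within the range of 0.174 to 0.316 of all arrays. Of 36 other early response genes measured, 3 (Egr2, Btg2 and Gadd45a) were higher in the 4 arrays in all 3 groups, with median differences over the list of -0.03 in PreGM GFP+, 0.02 in PreMegE and 0.05 in GMP GFP-. Of 17 other AP-1 and CREB/ATF leucine zipper genes, 0 did so. Of 11 heat shock and chaperone genes, 1 did, Hspa1a, which encodes an inducible cytosolic chaperone, by 1.09 in PreGM GFP+, 0.47 in PreMegE and 0.94 in GMP GFP-.

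Markers of mature neutrophils moved with some of these arrays. The mean signal of 7 neutrophil genes ran 6.12, 7.41, 8.11 over the PreGM GFP+ arrays and 8.71, 9.41, 10.76, 10.57 over those of GMP GFP-, and it was highest in the arrays high for Jun. In PreMegE it was 9.45, 8.49 and 8.70, so the array high for Jun was not the highest. Of the 7 genes, 1 (Mmp8) was higher in the 4 arrays in all 3 groups. Y-linked genes deviated from the group mean by 0.62 in PreGM GFP+ array 3, -0.13 in PreMegE array 3, and 0.24 and -0.09 in GMP GFP- arrays 3 and 4. The part of neutrophil RNA or of the sex of the mice in the signals of Jun and Dusp1 was not tested.

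Outside those groups the arrays of a group lay closer together. Dusp1 was 8.24, 8.43 and 8.24 in HSC GFP-, above all LMPP arrays (7.87, 7.80, 7.09 and 7.53). It was 7.10, 6.59 and 7.29 in CLP, 6.72, 7.02 and 7.19 in PreGM GFP- and between 6.91 and 7.48 in GMP GFP+. HSC GFP- was thus the highest group by mean for Dusp1, at 8.30 ± 0.11 (SD, n = 3). Jun was 8.75, 7.99 and 7.57 in HSC GFP-, 7.98, 8.35 and 7.81 in CLP and 7.89, 7.74, 7.26 and 7.77 in LMPP. It was 7.77, 6.90 and 6.38 in PreGM GFP- and 6.64, 6.33 and 6.13 in GMP GFP+, where 1 of 3 arrays exceeded the median signal. GMP GFP+ had the lowest mean of Jun, 6.37 ± 0.26 (SD, n = 3). The difference of LMPP from HSC GFP- for Dusp1 was -0.73 (SE 0.45, adjusted p = 0.584), without overlap, as for 12.0% of all genes.

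Whether these levels differed by the test depended on the 4 arrays. With all arrays the F test gave 1.48 for Jun (adjusted p = 0.481) and 1.93 for Dusp1 (adjusted p = 0.322). With the 4 arrays left out, an analysis chosen after seeing the data, it gave 8.33 for Jun (adjusted p = 0.00316) and 7.44 for Dusp1 (adjusted p = 0.0055), and limma called 4 of 10 members, with Egr1 and Zfp36, against 10.6% of all genes. The arrays were picked on Jun and Dusp1, so these calls are not independent of the choice. Dusp1 was then lower in PreMegE than in HSC GFP- (difference -1.04, SE 0.26, adjusted p = 0.0432), against -0.34 (SE 0.48, adjusted p = 0.859) with all arrays, and the Zfp36 difference between these groups no longer passed (-1.12, adjusted p = 0.0721). The reporter difference of Jun in GMP was -1.36 (SE 0.66, adjusted p = 0.219) with all arrays and -0.38 (SE 0.35, adjusted p = 0.59) without the 4. The mean of Jun in GMP GFP+ lay below the median signal, so the sizes of its differences from that group are not exact.

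Variance between groups was set against variance among arrays of a group for each gene. Of the variance of Zfp36 69.9% lay between groups, of Egr1 68.6%, of Jund 36.0%, of Junb 26.2%, of Fos 22.1%, of Dusp1 16.1% and of Jun 6.4%, and for Fosb, Ier2 and Nr4a1 the estimate was 0. The median over all genes was 12.1%. The SD among arrays of a group was 0.944 for Jun, at the 99.9th percentile of all genes, and 0.644 for Dusp1, at the 98.8th, against a median of 0.202 over all genes. The median over the members was 0.286. Without the 4 arrays the SD of Jun was 0.415 and that of Dusp1 0.307, and their shares between groups were 68.5% and 66.9%. The 4 arrays were picked for high Jun and Dusp1, so the smaller SD of these genes follows from the choice. Their larger shares are not independent of it either. The SD of Fosb went from 0.405 to 0.195 with a share of 2.2%, while that of Zfp36 was 0.366 and that of Egr1 0.191.

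**Figure D3:**
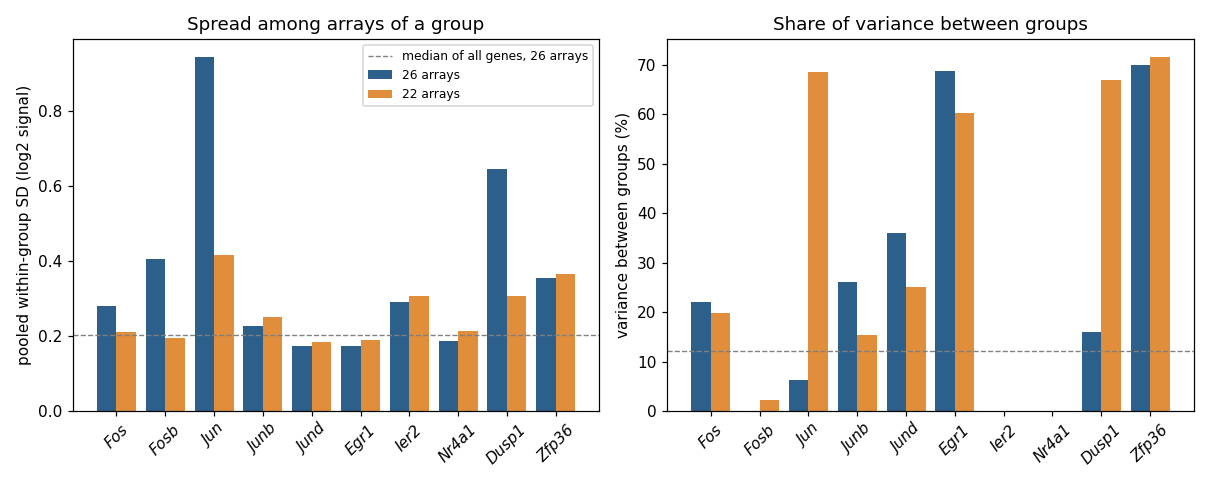
Left, the pooled SD among arrays of a group (y axis, log2 signal) for each gene (x axis); right, the share of variance between groups (y axis, %), with 26 arrays in blue and with the 4 arrays high for Jun and Dusp1 left out in orange. Dashed lines are medians over all genes with 26 arrays (0.202 and 12.1%). The share of Jun is 6.4% and 68.5%, that of Zfp36 69.9% and 71.6%, and genes without a bar have an estimate of 0. The 4 arrays were picked on Jun and Dusp1, so the changes of Jun and Dusp1 are not independent of that choice.

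The genes also deviated together. Over the 26 arrays, each as its deviation from its group mean, all 45 pairs of members had a positive Pearson correlation, from 0.08 to 0.82 with a median of 0.33, where the median over all pairs of genes was 0.03. Arrays of 1 group share their mean, so the deviations are not fully independent. Permuting arrays within groups (two-sided, 100000 resamples, Benjamini-Hochberg over the 45 pairs), 4 pairs passed by Pearson r and also by Spearman rho. Each group was permuted on its own, so the p-values could be too small if groups share a replicate effect. Jun and Zfp36 had r = 0.60 (permutation p = 0.00047, adjusted p = 0.021) and rho = 0.71 (permutation p = 1e-05, the smallest the resamples can give, adjusted p = 0.00045). Fos and Ier2, an early response gene of a nuclear protein, exceeded the median signal in 9 and 8 of 26 arrays, so most of their points were not shown to exceed background. They had r = 0.64 (permutation p = 0.0011, adjusted p = 0.026) and rho = 0.66 (adjusted permutation p = 0.025). Fosb exceeded the median signal in 19 of 26 arrays, and its other points were not shown to exceed background. Fosb and Dusp1 had r = 0.82 (permutation p = 0.0027, adjusted p = 0.031) and rho = 0.80 (adjusted permutation p = 0.025). Fos and Fosb had r = 0.71 (permutation p = 0.0025, adjusted p = 0.031) and rho = 0.66 (adjusted permutation p = 0.04).

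Leaving out the 2 arrays farthest from the median of the first-named gene, r was 0.62 for Jun and Dusp1, 0.61 for Jun and Zfp36, 0.63 for Fos and Ier2, 0.79 for Fosb and Dusp1 and 0.57 for Fos and Fosb. Without the 4 arrays Jun and Dusp1, with r = 0.79 over all arrays (adjusted permutation p = 0.086), had -0.18, and Fosb and Dusp1 had 0.38. Jun and Zfp36 had 0.75, Fos and Ier2 had 0.62 and Fos and Fosb 0.52 in the remaining arrays, and 43 of 45 pairs stayed positive with a median of 0.34. The 4 arrays were picked for high Jun and Dusp1, so a lower r of these genes without them follows from the choice and shows nothing more.

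**Figure D4:**
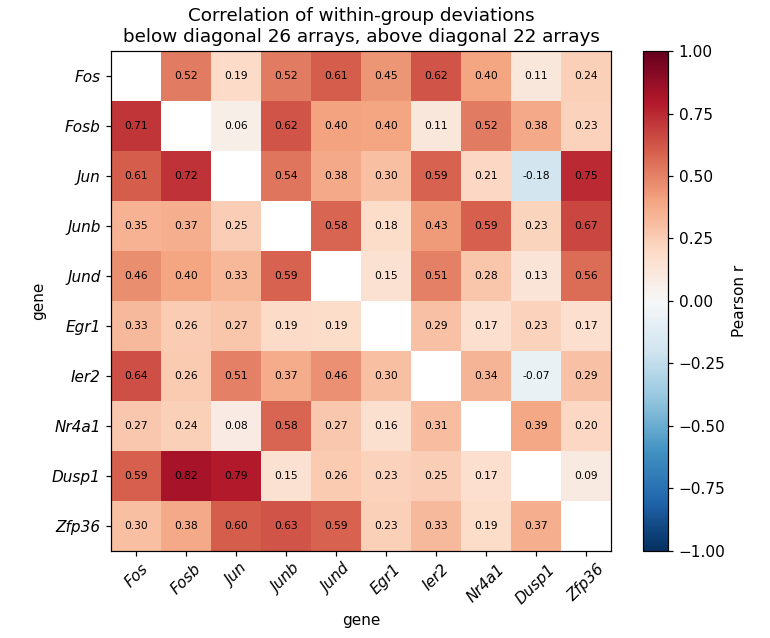
Pearson r between within-group deviations of 2 genes, with genes on both axes; below the diagonal all 26 arrays, above it the 22 arrays left when PreGM GFP+ 3, PreMegE 3 and GMP GFP- 3 and 4 are omitted. Jun and Dusp1 go from 0.79 below to -0.18 above, Jun and Zfp36 from 0.60 to 0.75.

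Beyond the 4 arrays, others stood at the edge of their group for most members. LMPP array 3 was the lowest of its group for 9 of 10 genes, below the mean of the other LMPP arrays by 0.50 on average (mean difference -0.504). HSC GFP- array 1 was the highest of its group for 8 of 10, and above the mean of the others by 0.33 on average. PreMegE array 2 was the lowest for 8 of 10 and GMP GFP- array 2 for 7 of 10. In HSC GFP- and LMPP, then, 1 array set the top or the bottom of the range for most members.

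The upstream sequences of Jun, Dusp1 and Fosb, high in the same 4 arrays, and of their relative Fos are shown with that of Zfp36, which had the highest F of the members. Each is the 250 bases before the start of the gene from the RefSeq table (build GRCm38.p6), 5′ to 3′ on the strand of the gene. Capitals mark TGACNTCA, the CREB/ATF and Jun-ATF site, TGACG, its shorter form, and the CArG box bound by serum response factor, each searched on both strands. TGACG is part of TGACGTCA, so these matches overlap.
Jun, chr4:95052223-95052472, minus strand: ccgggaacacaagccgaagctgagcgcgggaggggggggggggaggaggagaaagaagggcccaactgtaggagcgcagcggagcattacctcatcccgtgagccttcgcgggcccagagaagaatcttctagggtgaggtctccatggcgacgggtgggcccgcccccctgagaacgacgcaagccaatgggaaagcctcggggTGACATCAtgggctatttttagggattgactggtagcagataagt
Dusp1, chr17:26508473-26508722, minus strand: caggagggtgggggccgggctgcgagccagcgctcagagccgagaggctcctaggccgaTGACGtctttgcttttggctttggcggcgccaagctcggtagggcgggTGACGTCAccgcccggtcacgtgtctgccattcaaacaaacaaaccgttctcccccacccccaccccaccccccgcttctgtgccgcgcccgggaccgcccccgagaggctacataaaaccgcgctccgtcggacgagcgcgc
Fosb, chr7:19310046-19310295, minus strand: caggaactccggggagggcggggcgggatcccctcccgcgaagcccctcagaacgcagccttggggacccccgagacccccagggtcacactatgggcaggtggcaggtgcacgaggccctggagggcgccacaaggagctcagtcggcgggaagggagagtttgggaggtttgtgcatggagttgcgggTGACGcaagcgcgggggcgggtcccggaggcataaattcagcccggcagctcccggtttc
Fos, chr12:85473640-85473889, plus strand: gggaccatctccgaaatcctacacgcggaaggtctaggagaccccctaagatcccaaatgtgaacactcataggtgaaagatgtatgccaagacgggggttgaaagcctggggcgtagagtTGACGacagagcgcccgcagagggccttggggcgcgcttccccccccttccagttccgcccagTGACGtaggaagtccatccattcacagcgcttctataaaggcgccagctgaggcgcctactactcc
Zfp36, chr7:28379229-28379478, minus strand: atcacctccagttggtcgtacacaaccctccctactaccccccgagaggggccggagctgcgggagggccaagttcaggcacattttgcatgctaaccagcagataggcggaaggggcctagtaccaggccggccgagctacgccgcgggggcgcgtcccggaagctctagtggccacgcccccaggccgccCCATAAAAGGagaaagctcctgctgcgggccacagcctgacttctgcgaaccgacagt

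TGACNTCA lay 45 bases before the start of Jun and 143 before that of Dusp1, and 7.49% of the 32851 windows of this length hold it. TGACG lay 60 bases before Fosb and 129 and 66 before Fos, and 3 matches lay 191, 143 and 140 bases before Dusp1; 17.8% of windows hold it. The CArG box of Zfp36, 58 bases before its start, is in 1.47% of windows. The EGR site GCGNGGGCG lay 105 bases before Zfp36, 50 before Fosb and 60 before Nr4a1, and 4.7% of windows hold it. Of the other members in the table, Junb had TGACG 106 bases before its start and Nr4a1 had 4 such matches. TGANTCA, the core AP-1 site, was searched too, is in 6.75% of windows, and was in none of the windows of Fos, Fosb, Jun, Junb, Jund, Nr4a1, Dusp1 and Zfp36. A match is a run of letters, and no binding was measured. The table held 8 of the 10 members, and no window of Egr1 or Ier2 was searched.

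The remaining members had no call in any comparison. Junb, a Jun relative that can oppose it in dividing cells, ranged from 6.23 to 7.31 over all arrays, with its lowest group mean in GMP GFP+, 6.68 ± 0.17 (SD, n = 3), and its highest in GMP GFP-, 7.11 ± 0.06 (SD, n = 4). The GMP GFP- arrays (7.10, 7.03, 7.17 and 7.13) all lay above those of GMP GFP+ (6.69, 6.84 and 6.50), and the difference of -0.43 (SE 0.17, adjusted p = 0.132) was not called. Jund, the Jun relative of resting cells, ranged from 7.19 to 8.00 and exceeded the median signal in all 26 arrays. Its group means lay between 7.39 in both GMP groups and 7.82 ± 0.16 (SD, n = 3) in PreMegE, and its F test (F = 2.69, adjusted p = 0.156) passed without LMPP array 3 (adjusted p = 0.0398) and with Y-linked genes as a covariate (adjusted p = 0.0208), over a range up to 0.286.

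Fos exceeded the median signal in 9 of 26 arrays, Ier2 in 8 and Nr4a1, which encodes the nuclear receptor Nur77, in 1. For these genes no level above background was shown in most arrays, and a difference in RNA could not be detected there. Group means of Nr4a1 spanned 6.21 to 6.41 and those of Ier2 6.33 to 6.67. Fos was lowest in GMP GFP+ (5.87, 6.14 and 6.33), below all GMP GFP- and all PreGM GFP+ arrays. Its differences were -0.48 from GMP GFP- (SE 0.20, adjusted p = 0.164) and -0.62 from PreGM GFP+ (SE 0.22, adjusted p = 0.351), and neither was called.

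The planned comparisons follow in the order of the lineage tree. From HSC GFP- to LMPP, 0 of 10 members were called (2.32% of all genes), 0 had an unadjusted p under 0.05 (11.7% of all genes), and differences ran from -0.73 for Dusp1 to 0.16 for Zfp36. From LMPP to CLP, 0 were called (1.57% of all genes), 0 at an unadjusted p under 0.05 (10.1% of all genes), with differences from -0.58 for Dusp1 to 0.38 for Jun. From LMPP to PreGM GFP-, 0 were called (0.873% of all genes) and 2 had an unadjusted p under 0.05 (8.85% of all genes), Zfp36 at -0.71 (SE 0.25, adjusted p = 0.284) and Junb at 0.37 (SE 0.17, adjusted p = 0.513). Among these steps out of the stem cell gate, then, limma called no member.

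Between reporter-positive and reporter-negative PreGM, 0 were called (2.05% of all genes) and 2 had an unadjusted p under 0.05 (10.3% of all genes), Egr1 and Zfp36, in opposite directions. Between GMP GFP+ and GMP GFP-, 0 were called (7.27% of all genes) and 4 had an unadjusted p under 0.05 (22.8% of all genes), Zfp36, Junb, Fos and Jun, each lower with the reporter. In that comparison 8 of 10 members were lower, with a median difference of -0.35 against 0.08 over all genes, and 3 (Fos, Junb and Zfp36) did not overlap, against 23.7% of all genes. Without the 4 arrays, which include 2 of the 4 GMP GFP- arrays, 6 of 10 were lower with a median of -0.16. Members deviated together within groups, so their directions are not independent. The mean signal of the neutrophil markers lay between 7.23 and 8.48 in GMP GFP+ and between 8.71 and 10.76 in GMP GFP-, and their part in these differences was not tested. For the difference between these reporter effects 0 were called (0.702% of all genes), and 1, Fos, had an unadjusted p under 0.05, as had 7.54% of all genes (difference -0.75, SE 0.30, adjusted p = 0.491).

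From PreGM GFP- to GMP GFP-, 0 were called (1.39% of all genes), 0 at an unadjusted p under 0.05 (8.18% of all genes), with differences from -0.25 for Jund to 0.71 for Jun. Jund alone did not overlap there, against 7.58% of all genes. From PreGM GFP+ to GMP GFP+, 0 were called (1.02% of all genes) and 3, Fos, Egr1 and Junb, had an unadjusted p under 0.05 (7.45% of all genes). All 10 were lower in GMP GFP+, by 0.01 for Zfp36 up to 1.28 for Jun (difference -1.28, SE 0.70, adjusted p = 0.757), with a median of -0.31 against 0.02 over all genes, and 3 did not overlap, against 13.0% of all genes. This comparison shares GMP GFP+ with the reporter comparison in GMP. Members deviated together within groups, so the 10 directions are not independent. Fos, Ier2 and Nr4a1 lay below the median signal in most arrays. Without the 4 arrays the differences of Dusp1, Ier2, Fosb and Zfp36 were 0.04, 0.04, 0.12 and 0.10, and that of Jun was -0.35, with 6 of 10 members lower and a median of -0.18. From PreGM GFP+ to PreMegE, 0 were called (0.0652% of all genes), 0 at an unadjusted p under 0.05 (3.83% of all genes). Egr1 alone did not overlap there, at 0.24 higher in PreMegE (SE 0.15), against 9.40% of all genes.

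Of the 36 other early response genes 8 differed over the 8 groups by the F test of limma, against 15.2% of all genes. Between GMP GFP+ and GMP GFP-, 2 rose and 3 fell, where 3.22% of all genes were called higher and 4.05% lower. Gadd45b, a stress sensor that feeds MAP kinases, was lower by 1.54 (difference -1.54, SE 0.19, adjusted p = 8.73e-06) and Rhob, a small GTPase gene, by 1.49 (difference -1.49, SE 0.28, adjusted p = 0.00147), with Klf4 at -0.62. Ier3 rose by 0.97 (SE 0.25, adjusted p = 0.0198) and Tnfaip3, an inhibitor of NF-kB, by 0.57. Gadd45b was the only gene of this list called for the difference between the reporter effects of GMP and PreGM (-1.34, SE 0.28, adjusted p = 0.016). From HSC GFP- to LMPP Ppp1r15a, which ends the integrated stress response, fell by 0.63 (difference -0.63, adjusted p = 0.0494), and from LMPP to CLP Klf4 rose by 0.73 (adjusted p = 0.00749). The lower mean of each of these differences except that of Ier3 lay below the median signal, so their sizes are not exact.

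Among 16 measured upstream signalling genes, 0 rose and 2 fell with the reporter in GMP, where 3.22% of all genes were called higher and 4.05% lower. These were Map2k1, the kinase MEK1 above ERK, at -1.13 (SE 0.17, adjusted p = 0.000136) and Srf, serum response factor, at -0.60 (SE 0.16, adjusted p = 0.0235). Map2k1 was also lower in PreMegE than in HSC GFP- (difference -0.83, SE 0.18, adjusted p = 0.00959). Of 11 chaperone genes 0 rose and 4 fell in GMP GFP+, against the same shares of all genes. They were Hsph1 (difference -1.02, adjusted p = 0.00122), Hspd1, Hsp90aa1 and Dnaja1. The mature neutrophil markers were lower in the same comparison, with 4 of 7 called and a median of -2.59, and their part in the differences of these lists was not tested. Of 17 other AP-1 and CREB/ATF genes 1 was called higher there, Crem (difference 0.72, SE 0.21, adjusted p = 0.0374). Its means in both groups lay below the median signal, so neither was shown to exceed background.

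Of 9 measured genes of factors that act in decay of AU-rich messages, 2, both relatives of Zfp36, had a called F test. The share of all genes was 15.2%. Between GMP GFP+ and GMP GFP-, 1 of the 9 was called, against 7.27% of all genes. In GMP, Zfp36l1 had means of 5.92 ± 0.26 (SD, n = 4) without the reporter and 7.03 ± 0.26 (SD, n = 3) with it, a rise of 1.11 (SE 0.22, adjusted p = 0.00233), while the difference of Zfp36 there was -0.79 and not called. The signal of Zfp36l1 in GMP GFP- lay below the median, so the size of that rise is not exact. Zfp36l2 also differed over the groups (F test, adjusted p = 0.0306), with 8.90 ± 0.40 (SD, n = 3) in HSC GFP-, 8.79 ± 0.14 (SD, n = 3) for PreGM GFP+, 8.75 ± 0.20 (SD, n = 3) for PreMegE and 8.13 ± 0.41 (SD, n = 3) for GMP GFP+. Whether these patterns differ from that of Zfp36 was not tested.

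Genes whose pattern was most like the members are named by correlation alone. Over the 8 group means, the mean of the standardised members was followed most closely by Ptger1 (r = 0.96), Cabp1, Mtpap, Ptprj, Haglr and Ripply1 (r = 0.93), and 18 of 16990 genes reached an r of 0.9. Over the deviations of 26 arrays the closest were Bpi (r = 0.77), Syt17, Stfa2, Calb1, Smim5 and Krtap19-5 (r = 0.74). The deviations of Jun alone, taken up after the values were seen, were followed most closely by Mmp8, a neutrophil collagenase (r = 0.78), Slc25a21 (r = 0.78) and Cldn13 (r = 0.76). Those of Dusp1 were followed by Slc25a21 (r = 0.78), Cldn13 (r = 0.76) and Sphk1 (r = 0.71). Over the group means Zfp36 was followed by Clock (r = 0.97), Entpd1, Fmnl2 and Map3k8, a kinase above MEK (r = 0.96), and Egr1 by Dennd2c (r = 0.98). The points of each correlation share groups and arrays, and genes are not independent replicates.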

How the data were processed

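The authors deposited log2 signals, 1 per probe set and array of the Mouse Gene 1.1 ST array. The submitters' processing notes name RMA and oligo, with no versions or steps; base 2 is taken from the range of the values. Gene names came from the annotation of the 1.0 ST version: of 35556 probe sets 21789 named 1 gene, and 19938 genes remained with 1 probe set each, that of the highest mean (1 per member). A model with 1 coefficient per group was fitted to all 26 arrays in limma 3.58.1 (R 4.3.3), which shares the spread over groups, with Benjamini-Hochberg adjustment over all genes and a call at an adjusted p under 0.05. It was tested on simulated data. Variance components and correlations were computed in Python 3.11.15, with permutation within groups. All 10 members are named throughout; of the other lists only called genes or those in a statement on their list. The members, lists and comparisons were chosen with earlier results of these data known. Alternatives changed the scaling, the array weights, the covariates, the filter, the samples and the prior.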

Additional observations from a re-analysis of the deposited data

Results flagged for a closer look

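Single arrays that lay apart were sought with Dixon's test in the 2 groups of 4 arrays, LMPP and GMP GFP-, for each of the 10 genes; of 20 tests 4 exceeded the 95% critical value, where chance gives about 1 in 20. In LMPP array 3, Fosb was 6.31 against 6.79 to 6.86 in the other arrays, and Jund was 7.19 against 7.73 to 7.77. In LMPP array 2, Nr4a1 was 6.82 against 6.10 to 6.23. In GMP GFP- array 2, Egr1 was 6.32 against 6.62 to 6.67. The 4 arrays with high Jun and Dusp1 are not among these, since groups of 3 were not tested and in GMP GFP- there were 2 high arrays.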

How the results depend on the processing

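Of 11 counts of called members, 7 were 0 under every alternative run. Over the 8 groups the count of 2 was 4 with the 4 arrays left out (Jun and Dusp1 added) and 2 to 3 when 1 array was left out (Jund added without LMPP array 3). Zfp36 in PreMegE against HSC GFP- was the single call, and the count was 0 with each array centred on its median, 0 after quantile normalization, 0 with only the compared arrays and 0 to 1 when 1 array was left out; with the 4 arrays left out the count was 1, but the gene was Dusp1. In GMP the reporter count of 0 was 1 (Zfp36, adjusted p = 0.0373) with the mean deviation of other early response genes as a covariate and 0 to 1 when 1 array was left out; in PreGM it was 0 to 1. The median within-group SD of the members, 0.286, was 0.240 to 0.294 without 1 array. Over all genes the deviations of same-numbered arrays of different groups had r from -0.263 to 0.325, with a median of 0.03. It was over 0.1 in 18 of 85 pairs and under -0.1 in 11. Nearly all pairs over 0.1 lay among LMPP, CLP, both PreGM groups and GMP GFP+, and most under -0.1 held HSC GFP- or PreMegE. The arrays were not treated as paired, so a replicate effect that some groups may share was not removed from the main fit. The Y-linked signal did follow the number: array 2 was lowest and array 3 highest in 6 of 8 groups. In the other 2, HSC GFP- and PreMegE, array 1 was lowest and array 2 highest, so a number need not mark the same thing there. The labels do not say what a number marks. With the replicate number as a block, the counts were 2 over the groups and 1 for PreMegE against HSC GFP-, as without it. Of all genes 2927 were then called over the groups, against 3036. The block took the number as it stands, so it cannot show whether the counts hold under a batch that is numbered otherwise in HSC GFP- and PreMegE. Of 26 arrays 13 correlated best with an array of their own number, and no chance share is given for this. Dusp1 in PreMegE against HSC GFP- ran from -1.04 without PreMegE array 3 to 0.13 across arrays left out, and was not called in any of them. Of 4 Y-linked genes 3 were measured and used. Raw intensities were not analysed here, so background correction could not be varied.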
